A study of Mus musculus with 8 samples.

Results

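The genes described here are 10 targets of the transcriptional coactivator YAP, taken by name: Ccn1 (older symbol Cyr61), Ccn2 (older symbol Ctgf), Ankrd1, Amotl1, Amotl2, Ajuba, Lats2, Axl, Crim1 and Thbs1. Of these 10 genes, 8 had transcript values among the 22963 genes measured by RefSeq transcripts, and 6 passed the filter on low values that left 10278 genes for testing. The cells were wild-type Bruce 4 mouse embryonic stem cells, 1 male line of inbred C57BL/6J origin, kept for 2 weeks on dishes coated with gelatin or with laminin-511 (LN511) in a medium called Std, whose composition is not given in the sources used here, or in 2i. In 2i, a MEK inhibitor and a GSK3 inhibitor together keep mouse stem cells naive. Together the groups are gelatin Std, LN511 Std, gelatin 2i and LN511 2i, 4 groups with 2 RNA-seq libraries each and 8 in all. The series calls the replicates biological without saying what separated them, so p-values set differences against the spread between these libraries.

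YAP and its paralog TAZ (gene Wwtr1) carry no DNA-binding domain of their own and act in the nucleus through the TEAD transcription factors. The Hippo kinases, MST1/2 and LATS1/2, phosphorylate YAP and TAZ and hold them in the cytoplasm. Attachment to a stiff or adhesive matrix, spreading and actin tension are known to release them, and these target genes are widely used as a readout of that release. YAP protein activity was not measured here, and the values below are RNA levels.

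The members' promoters are shown first because the targets share a factor that binds DNA. RefSeq promoter windows (GRCm38.p6, the assembly mm10 names) were found for 8 of the 10 members, 9 windows in all since Lats2 has a pair of starts. The 250 bases before each start were searched on both strands for the core TEAD letters GGAATG, which read CATTCC on the other strand. Of the 9 windows, 6 held a match, against 12.6% of 32851 windows of the same length genome-wide. None of the 9 held the AP-1 letters TGANTCA (6.75% of all windows) or an SRF CArG box (1.47% of all windows). A match is a string of letters and not a measured site. The windows of Amotl1 and both windows of Lats2 held no match.

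The windows of Ccn1 and Ajuba, the most highly expressed members with a window, are printed 5′ to 3′ in the direction of the gene, with TEAD letters in capitals. The Ccn1 window is chr3:145649986-145650235, minus strand, with its match at bases -103 to -98 from the start. The Ajuba window is chr14:54577662-54577911, minus strand, with matches at -186 to -181 and at -164 to -159.
Ccn1: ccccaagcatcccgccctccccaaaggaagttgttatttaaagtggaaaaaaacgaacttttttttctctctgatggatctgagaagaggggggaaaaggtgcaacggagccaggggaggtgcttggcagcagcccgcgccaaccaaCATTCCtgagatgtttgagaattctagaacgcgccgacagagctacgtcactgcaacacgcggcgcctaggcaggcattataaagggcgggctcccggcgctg
Ajuba: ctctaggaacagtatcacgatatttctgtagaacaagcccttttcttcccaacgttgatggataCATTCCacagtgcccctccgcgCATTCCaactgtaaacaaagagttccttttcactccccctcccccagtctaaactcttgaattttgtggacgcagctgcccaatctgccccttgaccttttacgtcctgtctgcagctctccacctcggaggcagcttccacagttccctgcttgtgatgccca

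The matches in the other windows are shown with 10 bases on either side, to compare what surrounds the shared letters. They lay at -210 to -205 and -123 to -118 in Ankrd1 (window chr19:36119845-36120094, minus strand), at -65 to -60 in Amotl2 (chr9:102717554-102717803, plus strand), at -233 to -228 in Axl (chr7:25788734-25788983, minus strand) and at -79 to -74 in Crim1 (chr17:78199998-78200247, plus strand).
Ankrd1 distal: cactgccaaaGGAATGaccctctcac
Ankrd1 proximal: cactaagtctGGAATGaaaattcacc
Amotl2: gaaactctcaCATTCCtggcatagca
Axl: aaattctacaGGAATGtttaccagac
Crim1: ggcgggggggGGAATGaggtaggatg

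Levels are FPKM (fragments mapped to a transcript, scaled to its length and to the size of the library), summed over the RefSeq transcripts of a gene. The files hold no read counts. Low FPKM values fall into steps that put the depth at about 2450000 to 2910000 fragments per library, a 1.19-fold range, and 1 fragment on a transcript of 2000 bases at about 0.21 FPKM. Fragment numbers below are estimates from those steps. The stem cell markers Pou5f1 (949 to 1245 FPKM) and Sox2 (120 to 174 FPKM) were high in every library. Each difference was taken between means of log2(FPKM + 1) and is given with a standard error (SE). This scale understates the change of low genes. Adjusted p-values come from limma over all 10278 genes, with 4 residual degrees of freedom per gene. Limma draws the spread of each gene toward that of other genes of similar level, so a p-value does not rest on that gene's replicates alone. A gene was called at an adjusted p under 0.05.

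Ccn1 encodes a secreted matricellular protein that binds integrins and is among the most widely used YAP readouts (mm10 chromosome 3, 145646971 to 145649985). In Std its level was 11.3 and 10.4 FPKM on gelatin against 77.7 and 78.4 on LN511, and in 2i it was 16.9 and 16.1 on gelatin against 43.0 and 44.0 on LN511. The groups did not overlap, and both LN511 groups lay above both gelatin groups. About 50 and 49 fragments stood behind the gelatin Std values and 406 and 415 behind the LN511 Std values.

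Ccn2, the related connective tissue growth factor gene (chromosome 10, 24595442 to 24598683), measured 9.56 and 10.8 FPKM on gelatin and 21.5 and 30.8 on LN511 in Std medium. In 2i it measured 16.2 and 17.7 on gelatin and 34.7 and 29.5 on LN511. Every LN511 library was above every gelatin library, while the LN511 groups of the Std and 2i media overlapped. Within a library, which removes any scaling between libraries, Ccn1 was 1.18 and 0.96 times Ccn2 in gelatin Std and 1.04 and 0.91 times in gelatin 2i. The ratio was 3.61 and 2.55 in LN511 Std and 1.24 and 1.49 in LN511 2i.

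Thbs1 encodes thrombospondin-1, another secreted matrix glycoprotein (chromosome 2, 118111876 to 118127133). In Std it read 0.51 and 0.21 FPKM on gelatin and 6.47 and 8.19 on LN511, and in 2i 0.07 and 0.00 on gelatin and 0.35 and 0.21 on LN511. LN511 Std was the one group with clear signal, at about 105 and 135 fragments, where the other 6 libraries had 0 to 7. Thbs1 passed the filter on low values through the LN511 Std libraries alone, so it had to be higher there. Its differences are given as a description, without a p-value, and it is left out of the counts of members below, which are over the other 5 tested members.

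Ajuba encodes a LIM-domain adaptor of cell junctions that binds LATS kinases (chromosome 14, 54567469 to 54577661). Its FPKM was the highest of the measured members in every library, with 67.5 and 65.2 on gelatin and 104 and 85.9 on LN511 in Std medium. With 2i the levels were 42.9 and 44.8 FPKM on gelatin and 51.4 and 64.6 on LN511. Every Std library was above every 2i library, by a narrow margin between gelatin Std replicate 2 and LN511 2i replicate 2.

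Lats2 encodes a Hippo kinase that inhibits YAP and is itself a target, a feedback arm of the pathway (chromosome 14, 57689662 to 57746212). It was low. In Std it reached 1.48 and 1.00 FPKM on gelatin and 3.44 and 2.63 on LN511, and in 2i 1.81 and 2.93 on gelatin and 3.89 and 0.00 on LN511. The 0 stands beside a replicate with about 50 fragments, and in these files a 0 can be a failed estimate. A second, shorter Lats2 transcript was listed at 0 in all 8 libraries.

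Crim1, a transmembrane protein with cysteine-rich repeats that binds bone morphogenetic proteins (chromosome 17, 78200233 to 78376592), gave 1.47 and 1.39 FPKM on gelatin and 2.28 and 2.48 on LN511 in Std medium. Its 2i levels were 1.14 and 0.69 on gelatin and 0.91 and 1.32 on LN511. LN511 Std was the highest group, at about 38 and 42 fragments, and both 2i groups overlapped.

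The other 4 members did not enter the fit. Axl, a receptor tyrosine kinase for Gas6 (chromosome 7, 25756500 to 25788924), ranged from 0.00 to 1.41 FPKM and Ankrd1, a cardiac ankyrin repeat protein (chromosome 19, 36111965 to 36119844), from 0.00 to 0.90. Ankrd1 was at 0.00 in both gelatin Std libraries and at 0.90 and 0.22 in LN511 Std, the latter being about 5 fragments and 1. At this depth no difference was detectable for either gene. Amotl1 and Amotl2, angiomotin-like scaffolds that bind YAP, had no RefSeq transcript rows and were not analysed here by transcript sums.

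**Figure D1:**
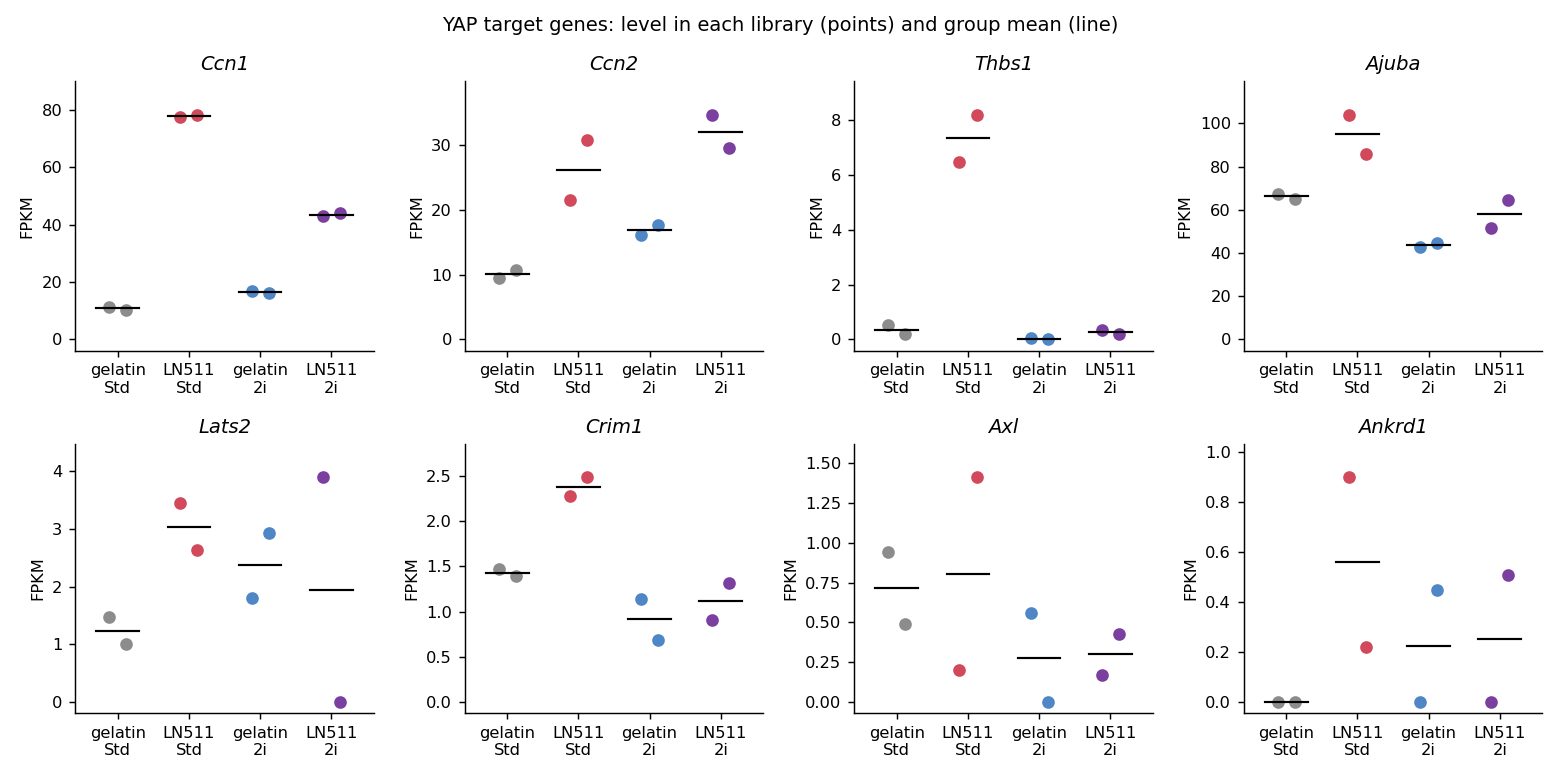
FPKM of the 8 measured YAP target genes (y axis, a separate linear scale for each gene) in the 4 groups of coating and medium (x axis), with each library as a point and the group mean as a line. Ccn1 is at 77.7 and 78.4 FPKM in LN511 Std against 11.3 and 10.4 in gelatin Std, and Thbs1 is above 1 FPKM in the LN511 Std libraries alone.

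LN511 was first set against gelatin in the Std medium. Ccn1 and Ccn2, related secreted matrix proteins, rose on LN511. Ccn1 was 7.2 times as high by group means (log2 2.74, SE 0.11, limma adjusted p = 0.000351) and had the smallest p of all 10278 genes. Ccn2 was 2.57 times as high (log2 1.26, SE 0.20, limma adjusted p = 0.0349). Thbs1 differed by log2 2.62, and no fold of its levels is given because the gelatin values stand on about 7 and 3 fragments. Ajuba (log2 0.51, SE 0.14, limma adjusted p = 0.154), Lats2 (log2 0.85, SE 0.69) and Crim1 (log2 0.48, SE 0.27) were not called. The count was 2 of 5 members higher, where 1.54% of all tested genes were called higher and 2.1% in either direction. Without the genes that, like Thbs1, passed the filter through 1 group, 1.39% of 10072 genes were called higher. The LN511 replicates lay above the gelatin replicates for all 5 members, as they did for 28.7% of all tested genes. The median log2 difference of the 5 members was 0.85 and that of all tested genes 0.05. The Ccn2 call was lost without any 1 of the 8 libraries (limma adjusted p 0.0523 to 0.133). Ccn1 stayed called without each library in turn. The Ccn2 call was also lost with the replicate number in the fit as a block (limma adjusted p = 0.065). It was lost again in the fit to the 2 Std groups alone (limma adjusted p = 0.138).

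Levels of markers of other cell types were read in the same comparison. Summed over 6 trophoblast markers, the level was 3.28 to 3.64 FPKM in gelatin Std and 12.4 to 16.3 in LN511 Std. Most of that sum was the keratin gene Krt7 (2.25 and 2.66 to 10.2 and 7.65 FPKM, log2 1.52, SE 0.46, limma adjusted p = 0.184). Hand1, a trophoblast and mesoderm factor, read 0.49 and 0.00 FPKM on gelatin and 3.12 and 2.35 on LN511, and like Thbs1 passed the filter through LN511 Std alone. None of the other 4 tested markers was called by limma. The Tfap2a levels were 0.14 and 0.25 FPKM on gelatin and 0.12 and 0.11 on LN511, those of Cdx2 were 0.00 and 0.60 against 0.54 and 0.53, and those of Gata3 were 0.41 and 0.13 against 2.33 and 1.77. Elf5 is listed at 0 in all 4 Std libraries, and such a 0 can be a failed estimate. Primitive endoderm markers, 6 genes, summed to 1.38 to 2.05 FPKM on gelatin and 4.33 to 4.54 on LN511. Only 1 of the 6, Dab2, passed the filter, and it was not called by limma. Fibroblast markers, 9 genes, summed to 4.36 to 5.57 and 3.86 to 3.87 FPKM, with Postn and Lum listed at 0 in every library. Most of that sum was Thy1 (4.45 and 3.54 FPKM on gelatin, 2.19 and 2.04 on LN511). Pdgfrb went the other way, from 0.00 and 0.00 to 0.20 and 0.49 FPKM. These 2 were the only fibroblast markers tested, and neither was called by limma. The part of these cell types in the Ccn1, Ccn2 and Thbs1 results was not tested. In bulk RNA, more cells of a type and more RNA per cell cannot be told apart.

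In 2i medium the coating comparison again put Ccn1 higher on LN511, 2.64-fold by group means (log2 1.35, SE 0.11, limma adjusted p = 0.0369). It was 1 of 2 genes called in this comparison, 0.0195% of those tested, and again had the smallest p. The other was the peroxiredoxin gene Prdx6, named here after its values were seen (log2 1.31, SE 0.11, limma adjusted p = 0.0369). Ccn2 was 1.9 times as high without being called (log2 0.88, SE 0.20, limma adjusted p = 0.197). Ajuba differed by log2 0.39 (SE 0.14) and Crim1 by 0.15 (SE 0.27), neither of them called. Thbs1 had 0 to 5 fragments in these libraries, too few for a difference to be detectable. Lats2 differed by -0.59 (SE 0.69), a value that turned to 0.56 without the LN511 2i library listed at 0. The LN511 replicates were above the gelatin replicates for 3 of the 5 members, against 22.2% of all tested genes. The Ccn1 call was lost without any 1 of the 8 libraries (limma adjusted p 0.0595 to 0.163) and with a pseudocount of 0.1 (0.0532), while its log2 difference stayed between 1.32 and 1.38 with 1 library left out. It was also lost with the replicate number in the fit as a block (limma adjusted p = 0.127) and in the fit to the 2 groups in 2i alone (0.284). Summed trophoblast markers were at 5.80 to 5.86 FPKM on gelatin and 6.29 to 8.04 on LN511 in this medium. Primitive endoderm markers were at 0.87 to 1.80 and 1.01 to 2.44, and fibroblast markers at 2.18 to 2.19 and 1.54 to 1.99.

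Whether the coating difference itself differed between media was tested as the interaction of coating and medium, the difference in 2i minus that in Std. For Ccn1 it was -1.39 (SE 0.15, limma adjusted p = 0.0415), 1 of 5 members against 0.185% of all tested genes called in either direction and 0.136% called lower. For Thbs1 it was -2.31, as a description. The values were -0.38 (SE 0.28) for Ccn2, -0.12 (SE 0.20) for Ajuba, -0.33 (SE 0.38) for Crim1 and -1.44 (SE 0.97) for Lats2. With the replicate number in the fit as a block, Ccn1 was not called (limma adjusted p = 0.114). The Ccn1 call was lost without any 1 of the 8 libraries (0.0694 to 0.195).

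The medium comparison on gelatin asked what 2i changed. Ccn1 rose 1.52-fold (log2 0.56, SE 0.11, limma adjusted p = 0.0185), and Ajuba fell, to 0.661 times its Std level (log2 -0.59, SE 0.14, limma adjusted p = 0.0377). Ccn2 was 1.66 times as high and not called (log2 0.68, SE 0.20, limma adjusted p = 0.065). The count of 2 of 5 members, 1 higher and 1 lower, stands against 15.4% of all tested genes, 8.2% higher and 7.2% lower. The replicates did not overlap for any of the 5 members, with 3 higher in 2i, against 29.9% of all tested genes, and 2 lower, against 29.3%. Lats2 (log2 0.58, SE 0.69) and Crim1 (log2 -0.35, SE 0.27) were not called, and Thbs1 had 0 to 7 fragments in these libraries. The Ajuba call was lost with the replicate number in the fit as a block (limma adjusted p = 0.0642). A fit to the 2 gelatin groups alone ended the call of Ccn1 (limma adjusted p = 0.0914). Leaving out gelatin Std replicate 2 ended the Ccn1 call (0.0733), as did leaving out either gelatin 2i library (0.0834 without replicate 1, 0.0658 without replicate 2). The Ajuba call was lost without any 1 of the 4 gelatin libraries (0.12 to 0.148) or with no filter on low values (0.0523).

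On LN511 the same change of medium lowered Ccn1 and Ajuba. Ccn1 fell to 0.557 times its Std level (log2 -0.83, SE 0.11, limma adjusted p = 0.0039), the opposite direction to gelatin. Ajuba fell to 0.61 times (log2 -0.71, SE 0.14, limma adjusted p = 0.0181). Thbs1 differed by log2 -2.70, with about 5 and 3 fragments in 2i, and entered through the higher of these groups. The count of 2 of 5 members lower stands against 9.95% of all tested genes. None was called higher, against 8.58%, where 18.5% were called in either direction. The 2i replicates lay below the Std replicates for 3 of the 5, against 32% of all tested genes, and above them for none, against 27.7%. In this comparison the median log2 difference of the 5 members was -0.71 where that of all tested genes was -0.04. Ccn2 stayed uncalled (log2 0.30, SE 0.20), as did Crim1 (log2 -0.68, SE 0.27, limma adjusted p = 0.133). Lats2 was not called (log2 -0.86, SE 0.69). It read -2.01 without LN511 2i replicate 1, where the group rests on the library listed at 0.00, and 0.28 without LN511 2i replicate 2. Leaving out replicate 1 of LN511 Std (0.0948) or of LN511 2i (0.0619) ended the Ajuba call. The Ajuba call was also lost in the fit to the 2 LN511 groups alone (limma adjusted p = 0.0812). The medium and coating comparisons share libraries, so their values are not independent. Among the 4 trophoblast markers tested beside Hand1, Krt7 fell and Tfap2a rose in this comparison, and on gelatin none was called. Of the 2 tested fibroblast markers Thy1 fell on both coatings and Pdgfrb rose on gelatin. The part of these cell types was not tested.

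**Figure D2:**
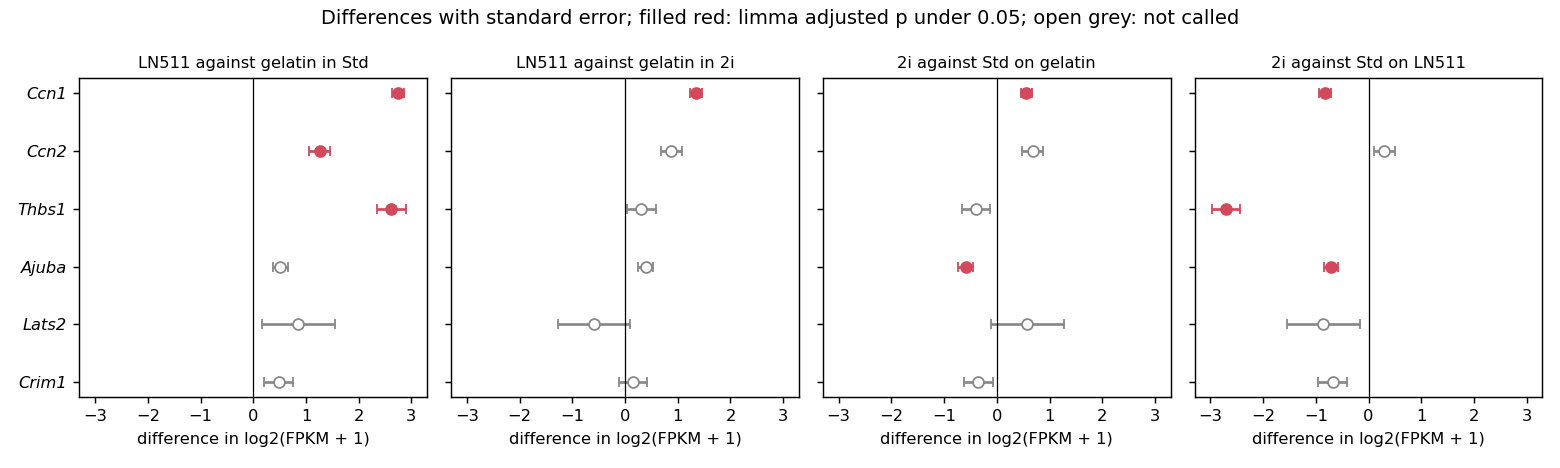
Difference in log2(FPKM + 1) (x axis) for the 6 tested YAP target genes (y axis) in the 4 comparisons of 2 groups, with the standard error as bars; filled red points passed a limma adjusted p of 0.05 and open grey points did not, with Thbs1 in the fit through its LN511 Std values alone. Ccn1 is at 2.74 and 1.35 for LN511 against gelatin in Std and 2i, and on either side of 0 for the medium, at 0.56 on gelatin and -0.83 on LN511.

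By group mean Ajuba was the highest member in every group, and in Std Ccn1 and then Ccn2 followed it on both coatings. Thbs1 passed the filter through LN511 Std alone, so its higher place there is only a description. In gelatin Std the group means ran from Ajuba at 66.4 FPKM through Ccn1 at 10.8 and Ccn2 at 10.2, which overlapped, to Crim1 at 1.43 and Lats2 at 1.24, which overlapped, and Thbs1 at 0.36. In LN511 Std, Ajuba at 95.1 and Ccn1 at 78.1 led, followed by Ccn2 at 26.1, Thbs1 at 7.33, Lats2 at 3.04 and Crim1 at 2.38. In 2i the order on gelatin was Ajuba at 43.9, Ccn2 at 16.9 and Ccn1 at 16.5, the last 2 overlapping. On LN511 in 2i it was Ajuba at 58.0, Ccn1 at 43.5 and Ccn2 at 32.1.

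The genes upstream of these targets were read from lists of pathway genes. Yap1 was at 50.0 to 53.5 FPKM in all 8 libraries and was not called in any comparison, with log2 differences of -0.01 (SE 0.09) for the coating in Std, 0.04 (SE 0.09) for the coating in 2i, 0.01 (SE 0.09) for the medium on gelatin and 0.05 (SE 0.09) for the medium on LN511. Wwtr1, the TAZ gene, rose in 2i, from 5.50 and 6.63 to 13.4 and 13.6 FPKM on gelatin (log2 1.04, SE 0.19, limma adjusted p = 0.0138) and from 4.39 and 5.06 to 13.8 and 13.3 on LN511 (log2 1.34, SE 0.19, limma adjusted p = 0.00475). It did not pass for the coating in either medium.

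Of 9 YAP, TAZ, TEAD and Vgll genes, 5 were tested, and for the coating none was called by limma in either medium. In Std 1 was higher and 1 lower at an unadjusted limma p under 0.05, and in 2i 0 and 0. Over all 10278 tested genes the counts were 1005 higher and 624 lower in Std, and 669 and 559 in 2i. The 1 higher in Std was Vgll3, whose direction was set by the filter, as described below. Vgll4, a cofactor that competes with YAP for TEAD, read 2.68 and 2.33 FPKM on gelatin in Std, and 0.78 and 1.35 on LN511. It is listed at 0 in all 4 libraries in 2i, so its calls as lower in 2i (limma adjusted p = 0.00655 on gelatin and 0.0379 on LN511) rest on zeros that can be failed estimates. Vgll3, another TEAD cofactor, read 2.13 and 2.37 FPKM in LN511 Std and 0.25 and 0.38 in LN511 2i, and passed the filter through LN511 Std alone. Tead1 and Tead4 were set aside because a 0 stood beside a clear value. Tead1 read 0.00 and 6.51 FPKM on gelatin in Std and 10.6 to 16.3 in the other 6 libraries, and Tead4 at 2.86 to 5.67 in Std and at 0.00, 17.8, 0.00 and 0.00 in 2i. Tead3 was at 0.72 to 4.98 FPKM with no call, and Tead2 was listed at 0 throughout.

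Of 21 Hippo kinases and upstream regulators, 17 were tested, and none was called for the coating by limma. At an unadjusted limma p under 0.05, 4 were higher and 0 lower in Std, and 2 and 0 in 2i. Over all 10278 tested genes these counts were 1005 and 624 in Std, and 669 and 559 in 2i. The 4 in Std include Rassf1, whose direction was set by the filter, as described below. In 2i on gelatin 2 of the 17 rose, where 8.2% of all tested genes did, a share near the background. They were Stk3, which encodes the kinase MST2 (6.00 and 6.61 to 13.0 and 14.6 FPKM, limma adjusted p = 0.0142), and Frmd6, a FERM-domain regulator (1.33 and 2.58 to 9.46 and 7.74 FPKM, limma adjusted p = 0.0098). On LN511 1 of 16 rose and 1 fell, also near the 8.58% and 9.95% of all tested genes. Stk3 rose (6.87 and 6.94 to 13.9 and 11.5 FPKM, limma adjusted p = 0.0294) and the striatin gene Strn3, named after its values were seen, fell (log2 -0.80, SE 0.21, limma adjusted p = 0.0444). The count of 16 leaves out Rassf1, an MST-binding protein that passed the filter through LN511 Std alone. Rassf1 read 1.45 and 3.56 FPKM there, and was listed at 0 in 2i.

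**Figure D3:**
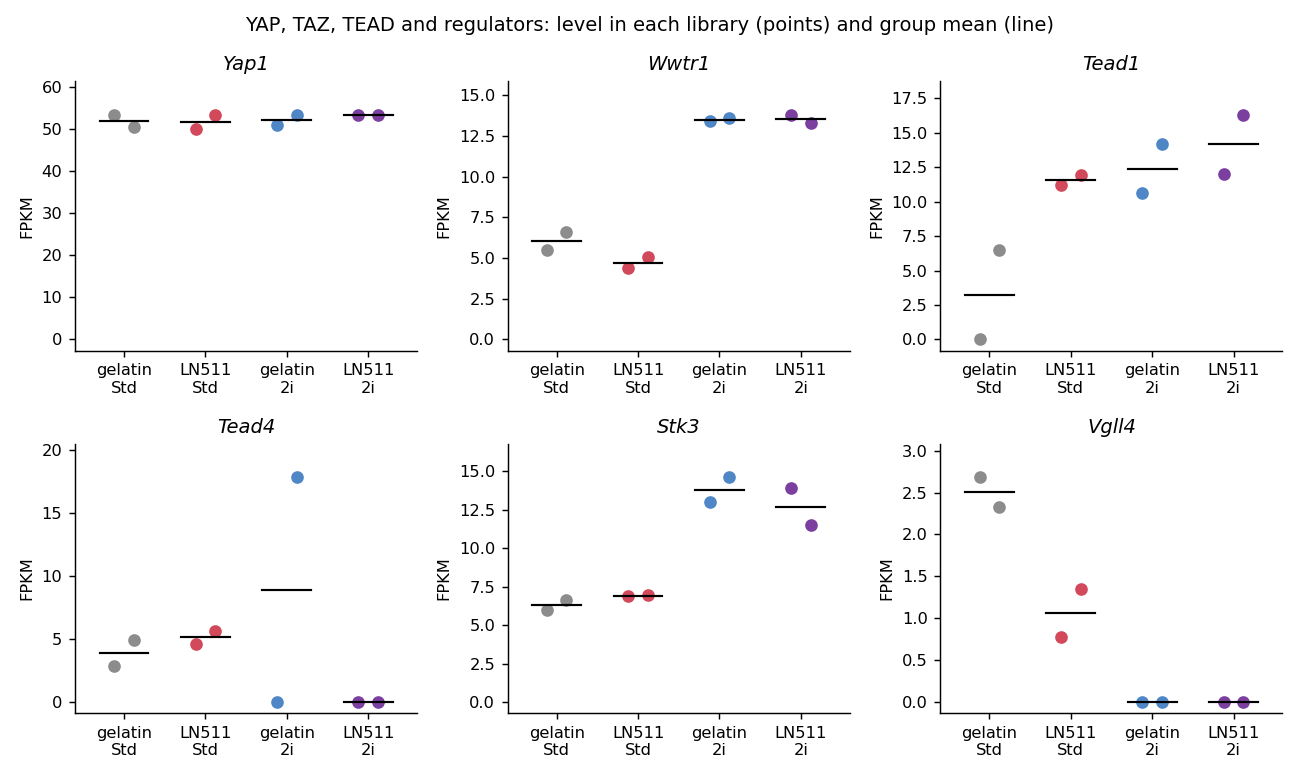
FPKM of YAP, TAZ (Wwtr1), 2 TEAD factors, the kinase gene Stk3 and the cofactor Vgll4 (y axis, a separate linear scale for each gene) in the 4 groups (x axis), each library as a point and the group mean as a line. Yap1 is at 50.0 to 53.5 FPKM throughout, Wwtr1 and Stk3 are higher in all 2i libraries than in all Std libraries, and points at 0 for Tead1, Tead4 and Vgll4 may be failed estimates.

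Other published YAP targets, a list of 20 genes outside the 10 members with 15 tested, held 2 genes, Myof and Ptgs2, that passed the filter through LN511 Std alone and are not counted. Of the other 13, 2 were called higher on LN511 in Std, where 1.54% of all tested genes were, and none lower. Their median log2 difference was 0.39, against 0.05 for all tested genes. The 2 called higher were Igfbp3, an insulin-like growth factor binding protein (8.28 and 8.18 to 19.0 and 19.2 FPKM, log2 1.12, SE 0.20, limma adjusted p = 0.0449), and Gadd45a, a growth arrest gene also induced by p53 (35.1 and 37.2 to 78.6 and 77.0 FPKM, log2 1.09, SE 0.18, limma adjusted p = 0.0362). In 2i none was called for the coating by limma, where 0.0195% of all tested genes were. At an unadjusted limma p under 0.05, 1 was higher and 0 lower, where 669 and 559 of all 10278 tested genes were. The medium on LN511 lowered 4 of 13, against 9.95% of all tested genes, with Gadd45a down to 18.4 and 13.3 FPKM (log2 -2.25, SE 0.18), Igfbp3 to 3.58 and 3.47 (log2 -2.15, SE 0.20) and F3, the tissue factor gene, from 4.95 and 7.45 to 0.00 and 0.95 (log2 -2.34, SE 0.40). The fourth, named after its values were seen, was Fjx1 (log2 -1.43, SE 0.40, limma adjusted p = 0.0491). On gelatin 2 of 13 fell in 2i, against 7.2% of all tested genes. They were Igfbp3 (log2 -1.53, SE 0.20) and Gadd45a (log2 -0.86, SE 0.18), where Ccn1 rose.

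Targets of SRF and its cofactors MRTF, which respond to actin polymerization and share several genes with the YAP programme, had 6 of 14 tested members called higher on LN511 in Std and none lower, where 1.54% of all tested genes were called higher and 0.564% lower. Their median log2 difference was 0.83, against 0.05 for all tested genes. Cnn2, a calponin that binds actin, rose from 14.7 and 17.9 to 64.3 and 59.5 FPKM (log2 1.87, SE 0.15, limma adjusted p = 0.00494). Zyx, the focal adhesion protein zyxin, rose from 7.41 and 8.92 to 20.5 and 22.5 (log2 1.30, SE 0.20, limma adjusted p = 0.0309). Flna, the actin crosslinker filamin A, rose from 55.4 and 57.1 to 101 and 99.1 (log2 0.82, SE 0.09, limma adjusted p = 0.0103). In 2i none of the 14 was called for the coating by limma, where 0.0195% of all tested genes were. At an unadjusted limma p under 0.05, 2 were higher and 3 lower, where 669 and 559 of all 10278 tested genes were. The medium on LN511 lowered 9 of 14, against 9.95% of all tested genes, with a median of -0.81 against -0.04, and Flna passed the interaction test (-1.07, SE 0.12, limma adjusted p = 0.0422), as Ccn1 did. On gelatin the medium raised 4 and lowered 2 of the 14, against 8.2% and 7.2% of all tested genes, with a median of 0.02 against 0.00.

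**Figure D4:**
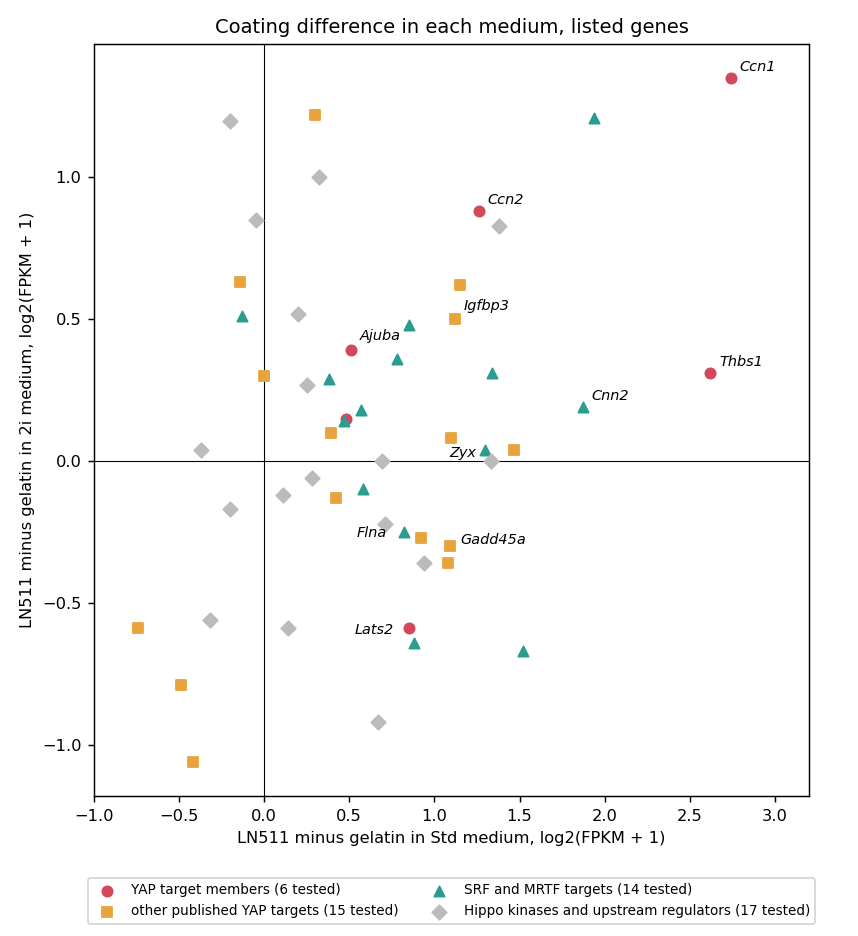
Difference of LN511 minus gelatin in log2(FPKM + 1) in Std medium (x axis) and in 2i medium (y axis) for the tested genes of 4 lists, 1 point per gene, the legend giving the number tested. Ccn1 at 2.74 and 1.35 is farthest to the upper right, Ccn2 at 1.26 and 0.88 is positive in both media, and Thbs1 at 2.62 and 0.31 and Cnn2 at 1.87 and 0.19 lie near the horizontal axis.

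The genes whose pattern over the 8 libraries was most like that of a member were found by Pearson correlation of log2(FPKM + 1), as a description. For Ccn1 they were Cycs, the cytochrome c gene (r = 0.990), the kinase gene Dapk3 (r = 0.979) and Phlda3, a p53 target (r = 0.977). Their range was narrower than that of Ccn1: Cycs ran from 34.4 FPKM in gelatin Std to 54.3 in LN511 Std, and Dapk3 from 16.1 to 35.9. For Ccn2 they were Gtf2a2, which encodes a subunit of the general factor TFIIA (r = 0.984), Gpn2 (r = 0.970) and Bmerb1 (r = 0.963). The lowest Bmerb1 levels were 7.95 and 8.07 FPKM, on gelatin in Std, and LN511 2i had 18.6 and 18.2. The 8 points fall into 4 groups and share 1 scaling per library. Likeness to Amotl2 could not be measured for want of transcript rows.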

How the data were processed

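RNA-seq values of 8 libraries were analysed, in 4 groups of 2 taken from the sample titles. The authors deposited FPKM values per gene symbol and per transcript, by RefSeq accession or assembled-transcript number. Cufflinks 2.1.1, TopHat2 2.1.1 and build mm10 are named in the submitters' processing notes. The sources used here give no roles, settings, annotation, strandedness or scaling between libraries.

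The gene table lists at 0 47.2% of the values that transcripts put at 1 FPKM or more, so RefSeq transcripts were summed per gene through the RefSeq gene table for GRCm38.p6 (31786 of 32688 matched), and 21844 assembled transcripts were left out. Genes with 1 FPKM or more in at least 2 libraries were kept. Another 966 with a doubtful 0 were set aside: 1 replicate at 0 and the other at 5 or more, or a whole group at 0 while the mean of some other group reached 5. The remaining 10278 were fitted with limma 3.58.1 in R 4.3.3 with a mean-variance trend on log2(FPKM + 1) and group means, after a test on simulated data. Depth was read from steps in low FPKM of transcripts with 1 RefSeq row per gene, their GENCODE M21 length less 200 bases. Between 63.4% and 69.3% of those values lay within 0.2 of a whole fragment (40% if spread evenly).

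The 10 members and all lists were chosen with earlier results of these data known. Outside the members the text names, per list, up to 3 called genes by adjusted p, always Yap1, Wwtr1 and Tead1 to Tead4, and 3 genes most like Ccn1 and Ccn2. Alternatives were another pseudocount, no filter, doubtful zeros kept, quantile normalization, the gene table, a replicate block, 2 groups alone and each library left out.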

Additional observations from a re-analysis of the deposited data

Results flagged for a closer look

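The coating difference of Ccn1 differed between the media by the interaction test, with a value of -1.39 on the log2(FPKM + 1) scale (SE 0.15, limma adjusted p = 0.0415). All 4 LN511 libraries were above all 4 gelatin libraries, at 77.7 and 78.4 against 11.3 and 10.4 FPKM in Std and at 43.0 and 44.0 against 16.9 and 16.1 in 2i.

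Amotl1, a member without RefSeq transcript rows, has values in the deposited gene table, where zeros are not reliable. It reached 4.47 FPKM there in gelatin Std replicate 1, and was at 3.02 in gelatin 2i replicate 2 and 1.74 in LN511 2i replicate 2. The other 5 libraries are listed at 0, so the groups were not compared.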

How the results depend on the processing

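For the 6 tested members over 5 comparisons, 361 of 419 log2 differences under another setting kept their direction and their side of the threshold, 48 lost a call, 3 gained one and 7 changed sign. Thbs1, which entered through LN511 Std alone, is among these as a description. Only a difference called in the reported fit could lose a call, so the 48 are out of the called ones and not out of 419. Differences that stayed uncalled are among the 361. The 7 that changed sign, each uncalled in the reported fit, were Crim1 in the gene table (0.30 for the medium on gelatin, -0.32 for the coating in 2i) and without gelatin 2i replicate 2 (-0.02 for the coating in 2i), Lats2 without LN511 2i replicate 2 (0.28 for the medium on LN511, 0.56 for the coating in 2i) and Ajuba's interaction (0.02 without LN511 Std replicate 1, 0.04 without LN511 2i replicate 1). With each library left out in turn these ran from -0.02 to 0.32 for Crim1 and -1.73 to 0.56 for Lats2 in the 2i coating comparison, from -2.01 to 0.28 for Lats2 between media on LN511, and from -0.28 to 0.04 for the interaction of Ajuba. In what follows counts are given in the order medium on gelatin, medium on LN511, coating in Std, coating in 2i and interaction, where the counts over the 6 tested members, Thbs1 included, are 2, 3, 3, 1 and 1, and those over all tested genes are 1583, 1905, 216, 2 and 19. With 1 library left out, where the lone replicate is assumed to vary like the other groups, members called by limma ranged over 0 to 3, 2 to 3, 1 to 2, 0 and 0, and genes over 648 to 1516, 861 to 1625, 9 to 199, 0 to 12 and 0 to 11. The deposited gene table gave 0 members in each comparison and 295, 326, 135, 54 and 65 genes. Of the 6 tested members only Crim1 entered that fit, so the counts of 0 there say nothing about the others. That table lists Ccn1 at 0 in LN511 Std replicate 1, where the transcript sum is 77.7 FPKM. Fits to the 2 groups compared alone, with no interaction, gave 1, 2, 1 and 0 members and 998, 962, 6 and 0 genes. No filter gave 1 member for the medium on gelatin, 15 genes for the coating in 2i and 31 for the interaction. Keeping doubtful zeros gave 42 genes for the coating in 2i and 53 for the interaction. A pseudocount of 0.1 gave 0 members and 0 genes for the coating in 2i, and took Thbs1 for the coating in Std from 2.62 to 4.09. Quantile normalization moved no count by over 1.5 times. For the counts of 0 members, 3 members in the coating in 2i had an unadjusted limma p under 0.05 in the reported fit, Ccn1, Ccn2 and Ajuba. In the interaction 2 had, Ccn1 and Thbs1, the latter having entered through LN511 Std alone. Over all 10278 tested genes, 669 were higher and 559 lower at that p in the coating in 2i. In the interaction 492 were higher and 759 lower. Where calls were lost, the cause was not tested beyond the fewer libraries or other values that each setting uses.

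Over all tested genes, same-numbered libraries did not deviate together (correlations of the replicate differences between groups of -0.0199 to 0.0193). Such a correlation cannot show whether a smaller set of genes shared a batch, so a pairing by number is not excluded. With a replicate block the members called, Thbs1 included, were 1 for the medium on gelatin and 3 for the medium on LN511. They were 2 for the coating in Std, 0 for the coating in 2i and 0 for the interaction. The 3 include Thbs1. The 2 were Ccn1 (limma adjusted p = 0.0031) and Thbs1, which entered through LN511 Std alone, and Ccn2 was not called (0.065). The genes called were 80 for the coating in Std, 0 for the coating in 2i and 1 for the interaction.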

Other observations

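The Axl sum came from different transcripts in different libraries. NM_009465 gave 0.69 FPKM in gelatin Std replicate 1 and 1.41 in LN511 Std replicate 2 and was at 0 elsewhere, and NM_001190974 gave 0.49 in gelatin Std replicate 2 alone. The largest of these values stands on about 17 fragments. With no filter on low values, Axl and Ankrd1 were not called in any comparison. For the coating in Std, Ankrd1 differed by log2 0.61 (SE 0.30, limma adjusted p = 0.454) and Axl by -0.00 (SE 0.39).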
